A study of Mus musculus with 15 samples.

Results

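The proteasome genes of the mouse trigeminal ganglion (TG) were taken by name, as every protein-coding gene whose symbol begins with Psma, Psmb, Psmc, Psmd, Psme, Psmf or Psmg followed by a number. The rule found 50 of the 55573 genes in the deposited count table, without use of any measured value. They comprise 8 alpha and 7 constitutive beta subunits of the 20S core, 4 immune or thymic beta subunits, 6 ATPases and 11 other subunits of the 19S cap, 6 activators or inhibitors, 7 assembly chaperones and Psmc3ip, which meets the rule by its name but encodes a partner of meiotic recombination and no proteasome subunit. The TG came from 10-week-old male CD1 mice, an outbred strain, whose right cornea had been wounded within a 2 mm trephine mark by removing the epithelium and the anterior stroma. Eyes then received vehicle, the lipid mediator resolvin D6 (RvD6, the labelled standard) or its stereoisomer RvD6si (the labelled isomer) 3 times a day, and the right TG was taken on day 12. Each group held 5 samples, vehicle as replicates 1 to 5, RvD6 as 6 to 10 and RvD6si as 11 to 15, and all 15 samples came from wounded mice, so no comparison here is with an uninjured TG. The labels give the schedule of the lipids but not their dose, and they do not say whether each sample was 1 mouse, so the spread between samples may be partly technical.

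The 26S proteasome degrades proteins tagged with ubiquitin. Its 20S core is a barrel of stacked rings, in which the alpha subunits form the gate and the beta subunits Psmb5, Psmb6 and Psmb7 carry the proteolytic sites. The 19S cap binds ubiquitin, removes it and unfolds the substrate with its ring of ATPases. Interferon can induce the beta subunits Psmb8, Psmb9 and Psmb10, which replace the constitutive catalytic subunits in the immunoproteasome, and the caps PA28 (Psme1 and Psme2 in the cytoplasm, Psme3 in the nucleus) and PA200 (Psme4) open the core without ATP. In neurons the proteasome takes part in the turnover of synaptic and axonal proteins. The transcription factor NRF1 (Nfe2l1) is known to raise proteasome genes together when proteasome activity falls short, through antioxidant response elements in their promoters.

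Promoter stretches that hold 2 of the known motifs of this gene family are shown first. RefSeq windows on GRCm38.p6 were found for 42 of the 50 genes (45 windows; not Psma8, Psmb1, Psmb2, Psmb7, Psmc3, Psmd3, Psmd7 and Psmg2), and the 250 bases before each start were searched on both strands. In each line the capitals mark the matched letters, the antioxidant response element core TGACNNNGC in the catalytic subunits Psmb6 and Psmb5, and the ETS factor core CCGGAAG in the ubiquitin receptor subunit Psmd4 and in the activator Psme3. The stretches lie outside all annotated exons and are printed in the direction of the gene, at chr11:70525318-70525356 (plus strand) for Psmb6, chr14:54618023-54618072 (minus strand) for Psmb5, chr3:95042703-95042769 (minus strand) for Psmd4 and chr11:101316076-101316142 (plus strand) for Psme3.
Psmb6: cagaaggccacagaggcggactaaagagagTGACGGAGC
Psmb5: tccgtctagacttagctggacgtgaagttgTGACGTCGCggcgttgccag
Psmd4: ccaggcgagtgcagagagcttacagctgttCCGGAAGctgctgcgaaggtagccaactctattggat
Psme3: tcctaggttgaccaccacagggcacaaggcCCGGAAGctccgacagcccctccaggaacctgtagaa
TGACNNNGC was found in 5 of the 45 windows (11.1%) and in 10.2% of all 32851 promoter windows of the same length. CCGGAAG was found in 14 of the 45 (31.1%) and in 6.91% of all windows. The CCAAT box was found in 33.3% of the proteasome windows and 33.8% of all, the interferon-stimulated response element core in 6.67% and 2.98%, and the gamma-activated core TTCNNNGAA in 4.44% and 7.02%. These are matches of letters only, and their relation to the changes in the lipid groups described below was not tested.

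Read counts were 4125962 to 9903396 per sample (median 7756538), and 49 of the 50 genes passed the filter on low counts, the exception being Psmb11. Group medians of the read counts were 9147139 in vehicle, 7235362 in RvD6 and 6862705 in RvD6si. Sensory neuron markers were high in every sample, with a summed level of 8120 to 17613 CPM (counts scaled to library size) over 12 of 12 genes tested. Libraries differed in markers of other cells. The sum of 9 skeletal muscle genes was 102 to 3196 CPM in RvD6, against 16.6 to 163 in vehicle and 11.6 to 35.1 in RvD6si, and the sum of 6 erythroid genes was 5691 to 10484 CPM in RvD6, against 2263 to 4960 in vehicle and 967 to 12817 in RvD6si, where replicate 15 held the highest value. Sensory neuron markers summed to 8120 to 14835 CPM in RvD6, 13619 to 15615 in vehicle and 13625 to 17613 in RvD6si, and 5 satellite glia genes to 4824 to 6206, 6576 to 7712 and 4498 to 6664. In RvD6 against vehicle 11 of the 12 sensory neuron genes were below 0, with a median log2 fold change of -0.34. Of these 12, 5 were lower at unadjusted p below 0.05 (5.99% of all genes). In RvD6si against vehicle 6 of the 12 were below 0 (median -0.01), 0 were lower at that threshold (7.30%) and 1 was higher (8.69%). The sum of 8 granulocyte precursor genes was 583 to 2002 CPM in RvD6 and 41.1 to 1337 in RvD6si. The RvD6 sums lay above the 95.6 to 537 of vehicle without overlap. In RvD6 against vehicle 8 of these 8 genes were higher at unadjusted p below 0.05 (7.63% of all genes), with a median of 2.45. The 6 lymphocyte genes summed to 16.7 to 62.1 CPM in RvD6, 3.60 to 27.5 in vehicle and 3.93 to 41.4 in RvD6si, with a median of 1.76 over the 4 tested in RvD6 against vehicle. In whole ganglia fewer cells of a type and less RNA per cell cannot be told apart.

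Levels in the vehicle group are given as normalised counts per kb of exon, so that genes can be compared. The cap ATPase Psmc5 had the highest level of the 50, 2395 per kb, followed by the alpha subunit Psma6 at 2014 and the beta subunits Psmb2, Psmb4 and Psmb6 at 1415, 1347 and 1293. By role, the median was 492 per kb for the alpha subunits, 957 for the beta subunits, 968 for the ATPases and 640 for the other cap subunits. The assembly chaperones had a median of 111 per kb and the activators and inhibitors of 84.9, with Psme4 lowest among them at 40.2. The immune subunits were far below their constitutive counterparts, with Psmb8 at 50.8 per kb beside Psmb5 at 957, and Psmb9 at 4.85 beside Psmb6 at 1293.

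**Figure D1:**
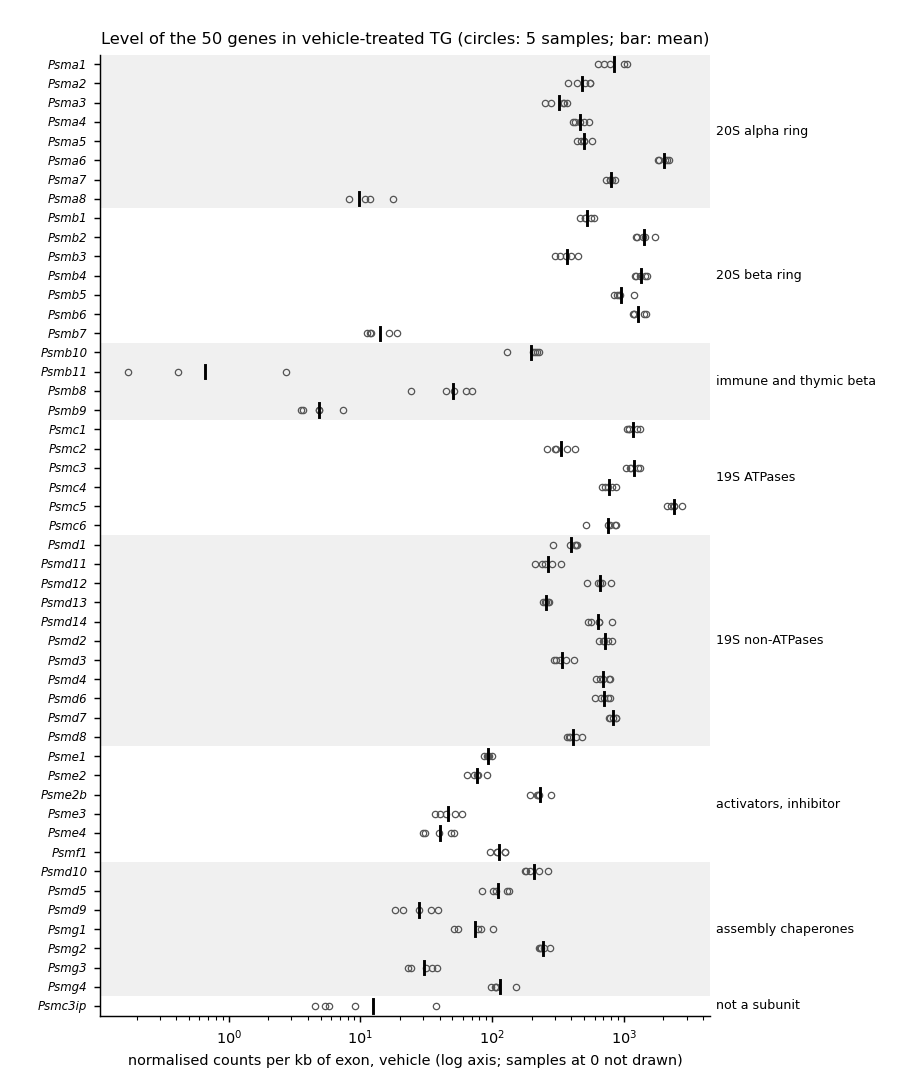
Normalised counts per kb of exon (log axis) of each of the 50 proteasome genes in the 5 vehicle samples (circles; samples at 0 are not drawn) and their mean (bar), by role. Psmc5 is highest at 2395 per kb; Psma8, Psmb7, Psmb9, Psmb11 and Psmc3ip lie between 0.658 and 14.1.

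Psmb7 went against this pattern. It encodes the trypsin-like catalytic subunit, which the core holds in the same number as its neighbours, but its vehicle level was 14.1 per kb and its raw counts were 31 to 218 per sample. Its transcript overlaps the antisense gene Nek6, with which 24.1% of its 75-base windows are shared, and by the counter's default a read on more than 1 gene is not assigned. Psmb9 likewise shares 10.8% of its windows with the antisense gene Tap1. The part of these overlaps in the low levels was not tested. Reads shared with near-identical copies also make the values of Psme2 and Psme2b (51.7% and 60.2% of windows shared with each other), Psmb5 (40.0%), Psma5 (39.8%) and Psmb3 (33.1%) uncertain. The testis subunit Psma8 and the thymus subunit Psmb11 were at the edge of detection, and Psmb11 was at 0 in 5 of 5 RvD6si samples. Psmb11 had 13.0, 0, 0, 1.97 and 0.822 normalised counts in vehicle and 0, 0, 0, 2.48 and 21.1 in RvD6.

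The first question was whether either lipid moved the proteasome genes against vehicle. After RvD6si 40 of the 49 tested genes had a log2 fold change below 0 (48.8% of all genes did), and after RvD6 39 of 49 (47.8%). The median was -0.27 for RvD6si and -0.29 for RvD6, against 0.02 over all 16567 genes in either comparison. By edgeR's quasi-likelihood test with Benjamini-Hochberg adjustment over all genes, 0 proteasome genes passed in RvD6si against vehicle, where 0.670% of all genes did, and 0 passed in RvD6 against vehicle, where the share of all genes was 0. At an unadjusted p below 0.05, 21 of 49 were lower after RvD6si (42.9%, beside 7.30% of all genes) and 1 was higher (8.69% of all genes). After RvD6 the counts were also 21 lower (42.9%, beside 5.99%) and 1 higher (7.63%). Of the 32 subunits of the constitutive core and cap, 20 were lower after RvD6si and 19 after RvD6 at this threshold. All 5 lipid samples lay below all 5 vehicle samples in 11 genes for RvD6si (2.40% of all genes) and 6 for RvD6 (1.47%), and above them in 0 for RvD6si (2.48%) and 1 for RvD6 (2.25%). Both comparisons use the same 5 vehicle samples, so they are not independent of each other.

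Taken sample by sample, the 50 genes held 0.791% to 0.915% of all counts in vehicle (median 0.864%), 0.611% to 0.762% in RvD6 (median 0.670%) and 0.696% to 0.811% in RvD6si (median 0.746%). The RvD6 samples all lay below the vehicle samples, while RvD6si replicate 13 lay within the vehicle range. The median log2 difference of the 49 tested genes from the vehicle mean was -0.11 to 0.14 in the vehicle samples. It was -0.05, -0.35, -0.13, -0.41 and -0.34 in RvD6 replicates 6 to 10 and -0.41, -0.26, -0.13, -0.24 and -0.29 in RvD6si replicates 11 to 15. RvD6 replicate 9, with the lowest share and the lowest median of its group, also had the highest muscle sum (3196 CPM) and the lowest sensory neuron sum (8120 CPM). In the RvD6si samples the muscle sums were 11.6 to 35.1 CPM and the sensory neuron sums 13625 to 17613 CPM, the latter beside 13619 to 15615 in vehicle. Without the sample of highest muscle sum in each group, the genes at unadjusted p below 0.05 in either direction went from 22 to 12 for RvD6, where the share of all genes went from 13.6% to 10.0%, and from 22 to 21 for RvD6si, where 2648 and then 2522 of all genes passed, and the medians were -0.26 and -0.28. Without vehicle replicate 3 alone the RvD6 count was 14 (10.9% of all genes) and the RvD6si count was 16 (12.8%). The part of muscle, sensory neuron, satellite glia, erythroid, granulocyte precursor and lymphocyte content in the values of either lipid group was not tested.

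**Figure D2:**
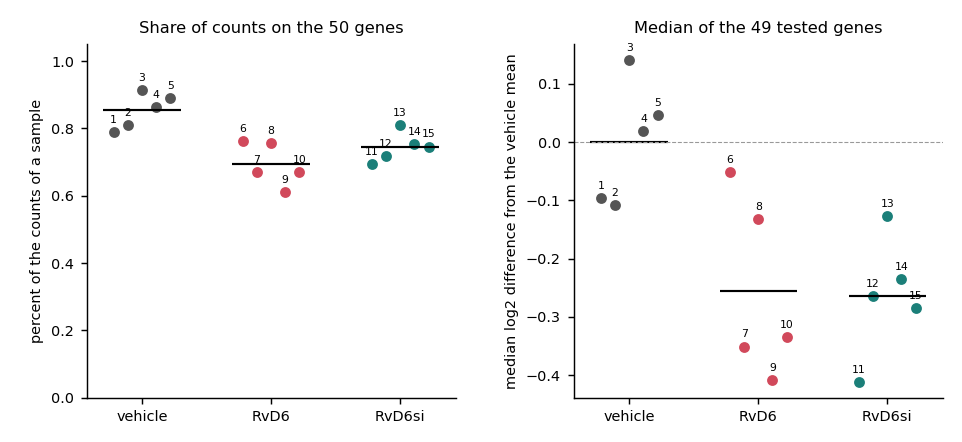
Share of each sample's counts on the 50 proteasome genes (left, percent) and median log2 difference of the 49 tested genes from their vehicle means (right), one point per sample with its replicate number and a bar at the group mean. All RvD6 samples lie below all vehicle samples in share, and the RvD6 and RvD6si points overlap in both panels.

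Among the alpha subunits of the core, 6 of 8 were lower after RvD6si at unadjusted p below 0.05 (7.30% of all genes). After RvD6 2 of 8 were (5.99%), and the medians were -0.34 and -0.25. Psma5 had normalised counts of 665, 624, 761, 588 and 656 in vehicle samples, 548, 469, 448, 432 and 538 in RvD6si and 597, 391, 614, 649 and 515 in RvD6. All 5 RvD6si samples lay below all vehicle samples, and the RvD6 samples overlapped them. Its log2 fold change was -0.44 ± 0.15 (SE, n = 5 a group) after RvD6si (edgeR adjusted p = 0.149) and -0.26 ± 0.15 after RvD6 (edgeR adjusted p = 0.458). Psma7 showed the other order, with 1852 to 2053 counts in RvD6 below the 2265 to 2624 of vehicle without overlap, and 1397 to 2595 in RvD6si. Psma2 moved least of the ubiquitous alpha subunits, at -0.09 after RvD6si and -0.16 after RvD6.

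Of the constitutive beta subunits 5 of 7 were lower after RvD6si at unadjusted p below 0.05 (7.30% of all genes). After RvD6 4 of 7 were (5.99%), and the medians were -0.35 and -0.28. Psmb6, the caspase-like catalytic subunit (11, 70525367 to 70527858), had 2770.0, 2215, 2654, 2229 and 2239 normalised counts in vehicle. The values were 1584, 1773, 1994, 1701 and 2048 in RvD6si and 2056, 1774, 2087, 1635 and 1984 in RvD6. Every lipid-treated sample lay below every vehicle sample. The log2 fold change was -0.42 ± 0.12 after RvD6si (edgeR adjusted p = 0.101) and -0.36 ± 0.12 after RvD6 (edgeR adjusted p = 0.218). Psmb4, a structural subunit without a catalytic site, had the lowest value of the ring after RvD6si, -0.48 ± 0.14 (edgeR adjusted p = 0.0988), with 1592 to 2341 counts against 2388 to 2942, and -0.34 after RvD6, where 1699 to 2633 overlapped vehicle. The chymotrypsin-like subunit Psmb5 was at -0.40 and -0.33 (761 to 1078 counts in vehicle, 593 to 716 in RvD6si, 554 to 786 in RvD6). Psmb7 alone lay on the other side, at 0.76 ± 0.50 and 0.86 ± 0.50. Its RvD6 value came from replicate 9, which had 270.2 counts where the other 4 had 35.2 to 51.6, and without that sample the log2 fold change was -0.18. Its RvD6si value was 0.41 without replicate 11, which had 154 counts where the other 4 had 53.8 to 77.5.

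**Figure D3:**
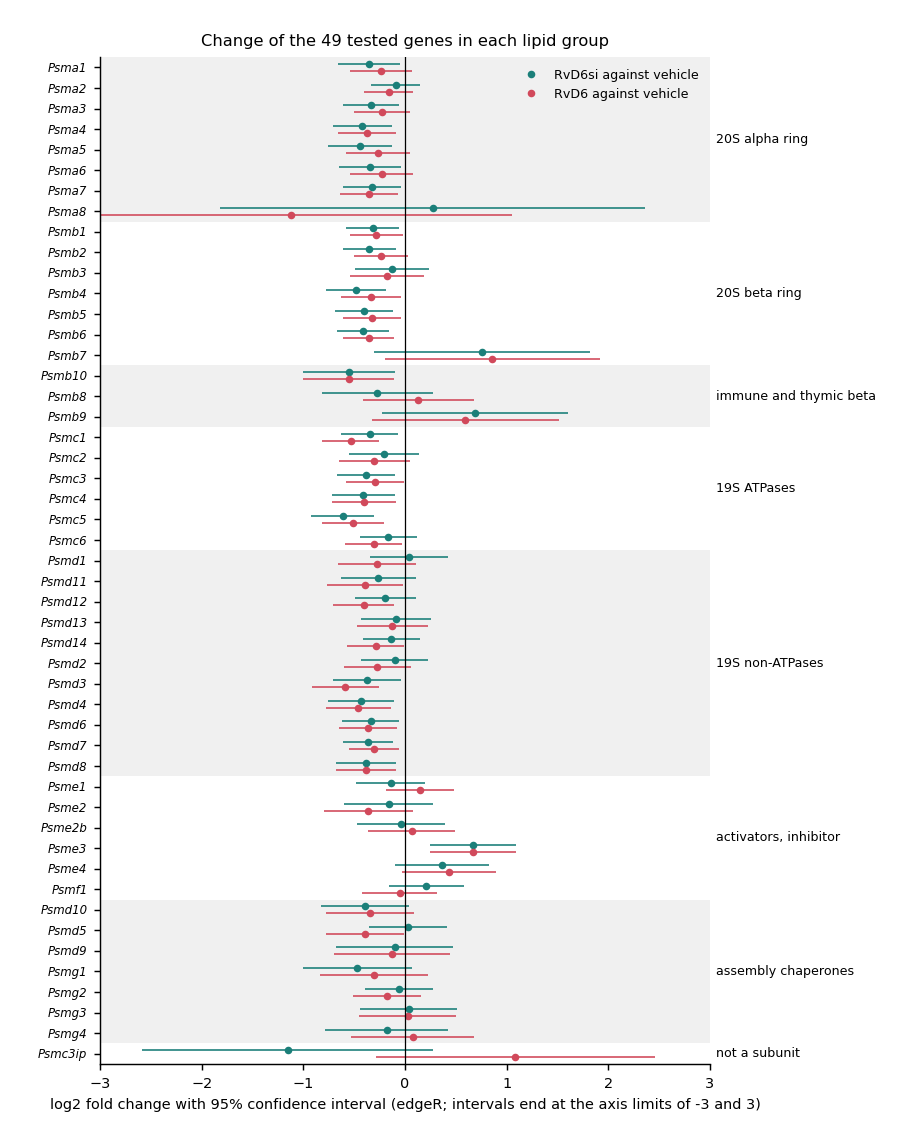
Log2 fold change with 95% confidence interval (edgeR) of the 49 tested proteasome genes after RvD6si (green) and RvD6 (red) against vehicle, by role. Intervals are drawn as far as the axis limits. Most constitutive core and cap genes lie left of 0 in both groups while the intervals include 0 for 27 of 49 genes in each comparison, and Psme3 lies right of 0 at 0.67 in both.

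The cap ATPases, which unfold the substrate and open the core, were all below 0 after both lipids (6 of 6). Of all genes 48.8% were below 0 after RvD6si and 47.8% after RvD6. At unadjusted p below 0.05, 4 ATPases were lower after RvD6si (7.30% of all genes) and 5 after RvD6 (5.99%). The medians were -0.36 and -0.36. Psmc5 (11, 106256154 to 106263120), the highest of the 50 per kb, also had the lowest edgeR p after RvD6si. Vehicle samples had 2959, 3183, 3865, 3336 and 3351 normalised counts, RvD6si samples 2165, 1814, 2829, 2293 and 1829, and RvD6 samples 2889, 2309, 2564, 1847 and 2222. Neither lipid group overlapped vehicle. The log2 fold change was -0.61 ± 0.15 after RvD6si (fold 0.653, edgeR adjusted p = 0.0604) and -0.51 ± 0.15 after RvD6 (fold 0.702, edgeR adjusted p = 0.174). Psmc1 (12, 100110154 to 100123405) showed the larger value after RvD6, -0.53 ± 0.13 (edgeR adjusted p = 0.125), beside -0.35 ± 0.13 after RvD6si. Its counts were 2051 to 2575 in vehicle, 1368 to 1845 in RvD6 without overlap, and 1522 to 2125 in RvD6si with overlap. Psmc6 moved least after RvD6si (-0.16) and Psmc3 least after RvD6 (-0.30).

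In the rest of the cap 5 of 11 subunits were lower after RvD6si at unadjusted p below 0.05 (7.30% of all genes). After RvD6 8 of 11 were (5.99%), and the medians were -0.26 and -0.36. Psmd3, a scaffold subunit of the lid (11, 98682554 to 98695979), had 1463, 1507, 1619, 1808 and 2074 normalised counts in vehicle. It had 1004, 1139, 1534, 938 and 1083 in RvD6 and 1208, 997, 1471, 1485 and 1401 in RvD6si. In RvD6 4 of 5 samples lay below all of vehicle, and the log2 fold change was -0.59 ± 0.16 (edgeR adjusted p = 0.152), against -0.37 ± 0.16 in RvD6si (edgeR adjusted p = 0.253). The ubiquitin receptor Psmd4 was at -0.43 and -0.46, with 1161 to 1642 counts in RvD6si and 1092 to 1841 in RvD6 against 1728 to 2195. Psmd1, a large scaffold of the base, was at 0.04 after RvD6si, where its 5 samples ranged from 1972 to 4204 counts, and at -0.28 after RvD6. Psmd13 was at -0.09 and -0.13, with 1 low RvD6si sample of 494 counts beside 826 to 952 in the other 4.

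The immune subunits did not share 1 direction. Psmb10 (8, 105935735 to 105938444), which replaces Psmb7, was at -0.55 ± 0.21 after both lipids (edgeR adjusted p = 0.209 for RvD6si and 0.279 for RvD6). The vehicle samples had 222, 349.7, 362, 388 and 375 normalised counts, against 267, 219, 229.8, 212 and 239 in RvD6 and 191, 382, 199, 173 and 216 in RvD6si. A low vehicle sample and a high RvD6si sample kept the groups overlapping, and without RvD6si replicate 12 the RvD6si value was -0.80 with an edgeR adjusted p of 0.0451. Psmb9, which replaces Psmb6, was at 0.69 ± 0.44 and 0.60 ± 0.44, from 13.0 to 27.1 counts in vehicle, 18.1 to 36.2 in RvD6si and 11.2 to 38.3 in RvD6. Psmb8, which replaces Psmb5, was at -0.27 after RvD6si and 0.13 after RvD6, with edgeR adjusted p of 0.657 and 0.870. The summed level of 16 interferon-induced genes overlapped between the groups, at 701 to 1155 CPM in vehicle, 863 to 1183 in RvD6 and 770 to 1085 in RvD6si. Of the 15 tested, 10 were above 0 after RvD6 (median 0.20) and 8 after RvD6si (median 0.11). In each comparison 2 were higher at unadjusted p below 0.05 (7.63% and 8.69% of all genes) and 0 lower. DESeq2 called 2 higher after RvD6 and 0 after RvD6si. Tap1, the antisense gene that overlaps Psmb9, had the highest log2 fold change of the 15 after RvD6. The part of Tap1 in the Psmb9 values was not tested.

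Psme3 was the 1 proteasome gene that was higher at unadjusted p below 0.05 after each lipid. It encodes PA28 gamma, the nuclear cap that lets the core degrade some regulatory proteins without ubiquitin (11, 101316213 to 101323537). The vehicle samples had 119.7, 132, 173, 153 and 109 normalised counts, against 256, 201, 179, 265 and 200.3 in RvD6 and 290.2, 211, 157, 195 and 245 in RvD6si. The RvD6 samples all lay above vehicle, and RvD6si replicate 13 was the only lipid-treated sample within the vehicle range. The log2 fold change was 0.67 ± 0.20 (fold 1.59) after each lipid, with an edgeR adjusted p of 0.111 for RvD6si and 0.183 for RvD6. A two-sided exact permutation test on the normalised counts gave p = 0.0159 for RvD6si and p = 0.00794 for RvD6, the latter being the smallest p that 5 against 5 samples allow. Psme3 was picked with earlier results of these mice known, so these 2 unadjusted values are no independent support. Without RvD6 replicate 9 its RvD6 value was 0.59 (edgeR adjusted p = 0.376).

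**Figure D4:**
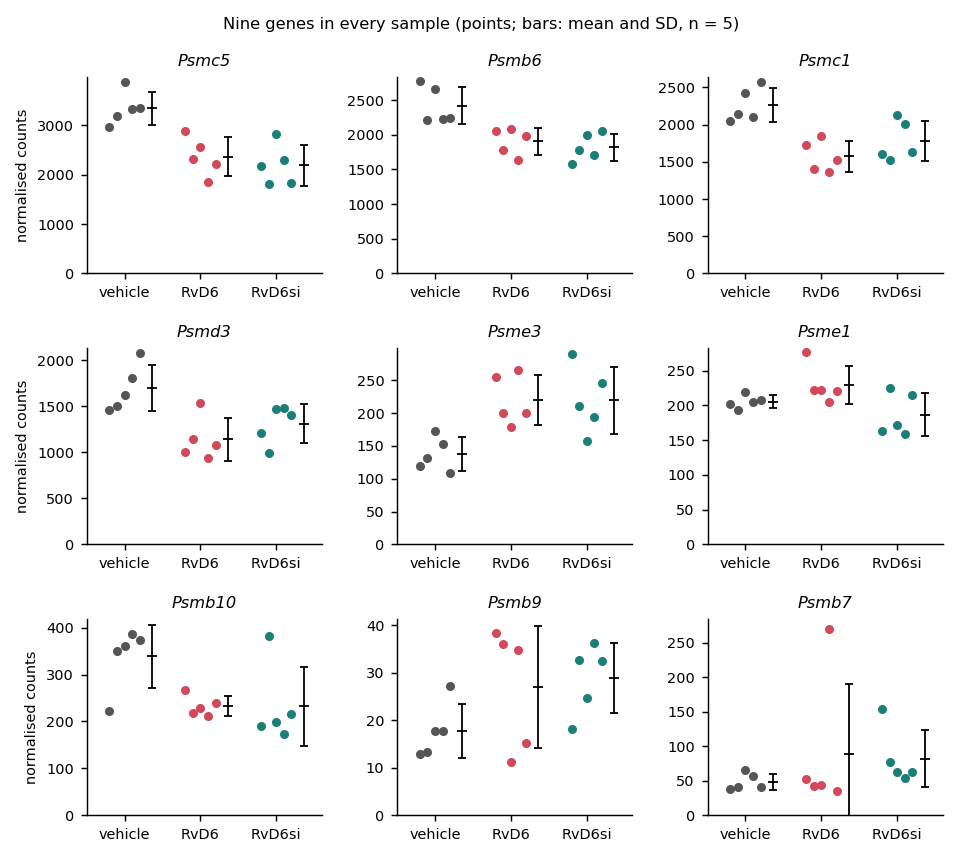
Normalised counts of 9 proteasome genes in each sample (points) with the mean and SD of each group (bars, n = 5; axes start at 0, where the lower bar of Psmb7 in RvD6 is cut). Psmc5 and Psmb6 in both lipid groups lie below vehicle without overlap, Psme3 in RvD6 lies above it, and the Psmb7 mean of RvD6 rests on 1 sample at 270.2.

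The other caps and the inhibitor stayed closer to vehicle. Psme1 ranged from 193 to 219 normalised counts over the vehicle samples, from 205 to 277 over RvD6 and from 158 to 225 over RvD6si, with log2 fold changes of 0.15 and -0.14 for RvD6 and RvD6si. Psme2, its partner in the cytoplasmic cap, was at -0.36 and -0.16, and its near copy Psme2b at 0.06 and -0.04. Psme4 (PA200) was at 0.44 ± 0.22 after RvD6 and 0.36 ± 0.22 after RvD6si, with group means of 337 counts for vehicle, 460.0 for RvD6 and 436 for RvD6si. The inhibitor Psmf1 was at -0.05 and 0.21. None of these 5 genes passed an unadjusted p of 0.05 in either comparison with vehicle.

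Of the 7 assembly chaperones 0 were lower at unadjusted p below 0.05 after RvD6si (7.30% of all genes). After RvD6 1 was lower (5.99% of all genes), Psmd5, at -0.39 ± 0.18 (edgeR adjusted p = 0.360). Psmg1, which pairs with Psmg2 to build the alpha ring, had the lowest value after RvD6si, -0.47 ± 0.25. Its mean was 72.0 normalised counts, beside 99.4 in vehicle, and the groups overlapped. Psmg3 and Psmg4, another pair of alpha ring chaperones, were at 0.04 and -0.18 after RvD6si and at 0.03 and 0.08 after RvD6.

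Ratios of counts within a library need no scaling for its depth, but those of low counts still varied with it. For 4 ratios, groups were compared over 3 contrasts (12 tests, two-sided exact permutation, Benjamini-Hochberg adjusted). The log2 ratio of Psme3 to Psme1 was -0.60 ± 0.25 (SD, n = 5) in vehicle, -0.07 ± 0.26 in RvD6 and 0.22 ± 0.39 in RvD6si. All 10 lipid-treated samples lay above all vehicle samples, and the differences of 0.53 and 0.81 had an exact p of 0.00794 each (adjusted 0.0317). Psme3 and the 4 ratios were chosen with earlier results of these mice known, so the p-values of all 4 ratios are no independent support. The log2 ratio of Psmb9 to Psmb6 was -7.10 ± 0.50 in vehicle and -5.99 ± 0.37 in RvD6si, a difference of 1.11 (exact p = 0.0159, adjusted 0.0476), and -6.26 ± 0.89 in RvD6 (difference 0.84, adjusted exact p = 0.155). With any of RvD6si replicates 12 to 15 left out its adjusted exact p was 0.0714. With all samples thinned to the lowest total its differences from vehicle were 1.30 after RvD6si and 0.66 after RvD6. The ratio of Psmb10 to Psmb7 was lower after RvD6si by a difference of -1.26 (adjusted exact p = 0.0317), but it rests on Psmb7, whose counts are low and scattered. After RvD6 that difference was -0.91 (adjusted exact p = 0.114), without RvD6 replicate 10 it was -1.12 (adjusted exact p = 0.0317), and without RvD6 replicate 9 it was -0.35 (adjusted exact p = 0.159). For Psmb8 to Psmb5 the differences were 0.17 and 0.53 after RvD6si and RvD6, with adjusted exact p of 0.611 and 0.155.

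DESeq2, the study's own tool, was run on the same counts. In RvD6si against vehicle it gave an adjusted p to 45 proteasome genes and called 8 (8.13% of all genes with an adjusted p). In RvD6 against vehicle it called 4 of 48 (1.92%). Psme3 rose in both by this test, with DESeq2 adjusted p of 0.0220 after RvD6si and 0.0488 after RvD6. In RvD6si 7 fell (3.30% of all genes did), namely Psmc5 (DESeq2 adjusted p = 0.00280), Psmb6 (0.0117), Psmb4 (0.0187), Psmd7 (0.0200), Psma4 (0.0307), Psmb5 (0.0410) and Psma5 (0.0436). In RvD6 3 fell (0.479%), namely Psmc1 (DESeq2 adjusted p = 0.0118), Psmd3 (0.0320) and Psmc5 (0.0462). Psmd7, the partner of the deubiquitinase in the lid, and Psma4 were named because DESeq2 called them. In edgeR the log2 fold changes were -0.37 ± 0.12 for Psmd7 (edgeR adjusted p = 0.131) and -0.42 ± 0.14 for Psma4 (edgeR adjusted p = 0.136) after RvD6si.

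Proteasome transcripts are short, and over the whole table shorter genes tended to have lower values after both lipids. The median exonic length was 2800 bases for the tested proteasome genes and 3968 for all tested genes. Across the 49 genes Spearman's rho between length and log2 fold change was 0.509 for RvD6si and 0.117 for RvD6, as a description, since genes share libraries, and 0.290 and 0.246 across all tested genes. Between mean level (log2 CPM) and log2 fold change it was -0.283 for RvD6si and -0.382 for RvD6 across the 49 genes. Across all tested genes these values were -0.0209 and -0.208, and the part of level in the fold changes was not tested. With each sample's trend on length removed, 14 of 49 were lower after RvD6si at unadjusted p below 0.05 (6.54% of all genes) and 17 after RvD6 (6.28%), and the medians were -0.20 and -0.22. After RvD6si the beta subunits moved most, with a median that went from -0.35 to -0.17 (3 of 7 lower in place of 5). The alpha subunit median went from -0.34 to -0.27 (3 of 8 in place of 6). After RvD6si Psma5 was then at -0.23, Psmb5 at -0.17, Psmb2 at -0.14, Psmb10 at -0.36 and Psmc1 at -0.20, none of them past an unadjusted p of 0.05. Psmb6 was at -0.27 and Psmb4 at -0.33 after RvD6si, and at -0.24 and -0.22 after RvD6. In the cap the medians went from -0.36 to -0.29 for the ATPases and from -0.26 to -0.25 for the other subunits after RvD6si. Psmc5 was at -0.42 and -0.38 after RvD6si and RvD6, Psmd3 at -0.50 and -0.67, and Psme3 at 0.72 and 0.72.

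Of 30 other genes of the pathway 7 were higher (8.69% of all genes were) and 2 lower (6.67%, beside 7.30%) after RvD6si at unadjusted p below 0.05. After RvD6 0 were higher (7.63% of all genes) and 2 lower (6.67%, beside 5.99%). The adjusted edgeR threshold was passed by 0 in either comparison (0.670% of all genes for RvD6si and 0 for RvD6). DESeq2 called 6 of the 30 after RvD6si (5 higher and 1 lower, beside 8.13% of all genes in either direction) and 0 after RvD6 (1.92% of all genes). They were Pomp (DESeq2 adjusted p = 0.00493, lower), Akirin2 (0.0210), Nfe2l1 (0.0447) and, named after these calls were seen, Vcp (0.00324), Zfand5 (0.00455) and Ubqln1 (0.0119). Pomp, the chaperone that completes the core, had group means of 1468 (vehicle), 1198 (RvD6) and 1004 (RvD6si) normalised counts (log2 fold change -0.55, edgeR adjusted p = 0.0684 after RvD6si, and -0.31 after RvD6). Nfe2l1 was at 0.43 after RvD6si (edgeR adjusted p = 0.144) and 0.07 after RvD6, from a vehicle mean of 1106 to 1500 and 1172. Akirin2, which carries proteasomes into the nucleus, was at 0.85 (edgeR adjusted p = 0.104) and 0.52, with means of 115, 209 and 167 in vehicle, RvD6si and RvD6. The deubiquitinase Usp14, which docks on the cap, was at -0.01 and -0.34. The 9 genes that deliver substrates to the proteasome had a median of 0.25 after RvD6si and -0.01 after RvD6.

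The stereoisomers were also compared directly. RvD6 is a dihydroxylated derivative of docosahexaenoic acid, and RvD6si has the same bonds but differs in stereochemistry. In RvD6si against RvD6, 0 proteasome genes passed the adjusted edgeR threshold (0.235% of all genes did), 1 was lower at unadjusted p below 0.05 (4.64% of all genes) and 1 higher (4.18%). These 2 of 49 genes stand beside 8.82% of all genes in either direction. The median was 0.00, with 25 genes above 0 and 24 below (50.5% of all genes were below). The samples of RvD6si lay all below those of RvD6 in 1 gene (1.09% of all genes) and all above in 0 (0.652%). DESeq2 on all samples called 0 (0.936% of all genes, and 0.678% as lower), and with the length trend removed 1 was lower at unadjusted p below 0.05 (4.61%). The higher gene was the chaperone Psmd5, at 0.43 (95% confidence interval 0.04 to 0.81, edgeR adjusted p = 0.506), with 686 to 956 normalised counts in RvD6si and 434 to 817 in RvD6. The lower gene was Psmc3ip, at -2.24 (-3.69 to -0.79, edgeR adjusted p = 0.285), with 3.10 to 16.4 counts in RvD6si and 23.4 to 117 in RvD6, without overlap. In the DESeq2 fit of these 2 groups alone Psmc3ip passed with an adjusted p of 0.0316, and 21.2% of its exonic length overlaps the antisense gene Mlx.

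For most subunits the interval of the difference was narrow enough to bound it. Of 49 intervals 45 lay within a log2 difference of 1 in either direction and 31 within 0.5, the exceptions to the wider limit being Psma8, Psmb7, Psmb9 and Psmc3ip. For Psme3 the difference was 0.00 (-0.42 to 0.42), for Psmc5 -0.10 (-0.41 to 0.20), for Psmb6 -0.06 (-0.31 to 0.20), for Psmc1 0.19 (-0.09 to 0.47) and for Psmd3 0.21 (-0.12 to 0.55). Psme1 was at -0.29 (-0.63 to 0.05) and Psmb8 at -0.41 (-0.95 to 0.14). A difference that misses the threshold does not show that the isomers act alike, and none of the 4 ratios passed between them, the lowest adjusted exact p being 0.155 for Psmb8 to Psmb5. Without RvD6 replicate 9 the difference for Psmb10 to Psmb7 was -0.91, with an adjusted exact p of 0.0381. As a description, Spearman's rho between length and the RvD6si minus RvD6 value was 0.502 across the 49 genes and 0.0748 across all genes tested.

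**Figure D5:**
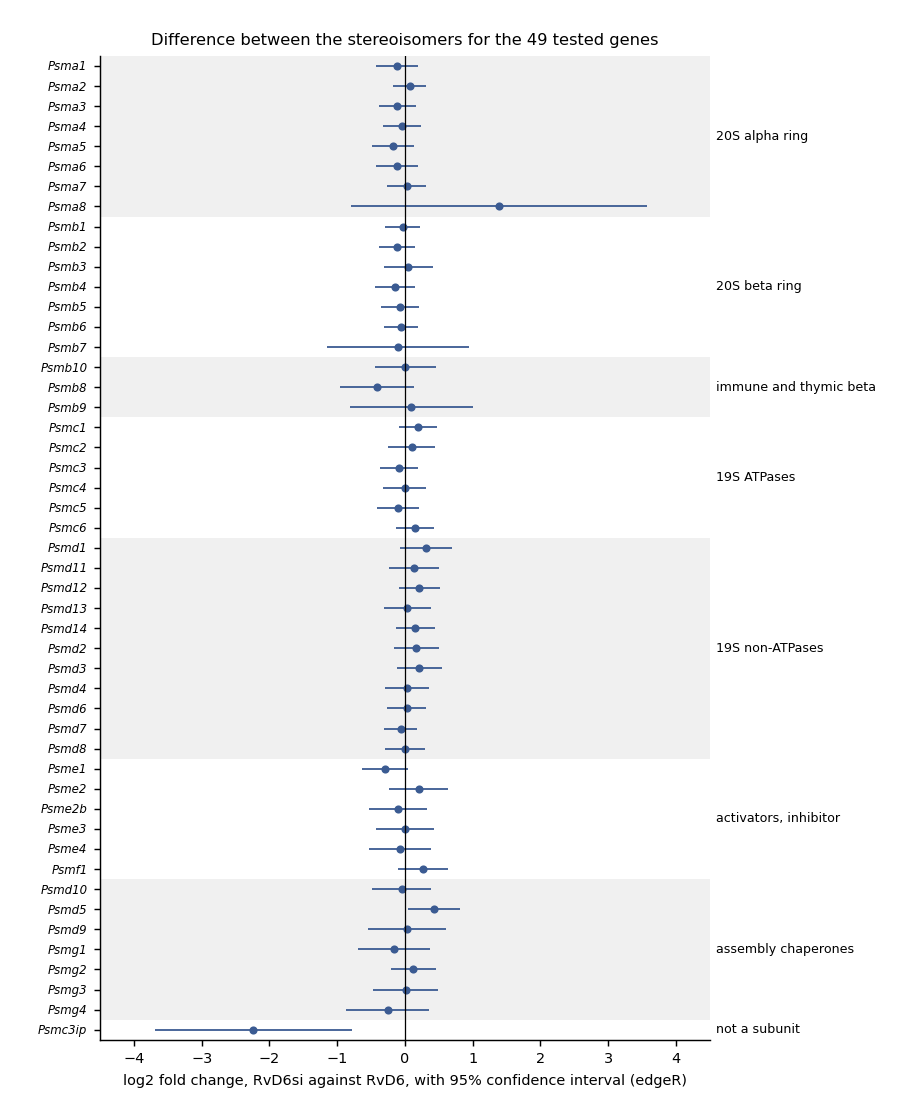
Log2 fold change of RvD6si against RvD6 with 95% confidence interval (edgeR) for the 49 tested proteasome genes, by role. The intervals include 0 in 47 genes; Psmd5 (0.43) and Psmc3ip (-2.24) are the exceptions.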

How the data were processed

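The 15 right TG samples labelled vehicle, RvD6 or RvD6si (5 each) were profiled by RNA-seq with an adapted Smart-seq2 protocol (oligo-dT priming from 1 ng of RNA, cDNA amplification, Nextera XT), which does not mark strand. The deposited values are raw read counts per gene. Per the study's methods the authors aligned reads to GRCm38 with Rsubread and GENCODE annotation, and counted them with featureCounts (Subread 1.6.5 in the methods, while the table's header names another version). Symbols came from GENCODE M21, which named 55480 of the 55573 identifiers.

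All 15 samples entered 1 edgeR 4.0.16 quasi-likelihood fit (R 4.3.3, TMM, filterByExpr with a minimum count of 10), which tested 16567 genes, with Benjamini-Hochberg adjustment over all of them at 0.05. Normalised counts are counts divided by DESeq2 1.42.0 size factors. Fold changes are given on the log2 scale with edgeR standard errors and 95% intervals. Ratios were computed per sample on log2 with 0.5 added to each count and tested by exact permutation (SciPy 1.17.1). Library totals of 4125962 to 9903396 set the counting precision, and samples of a group differed by far more than counting noise. The scripts were tested on simulated counts. Alternatives were DESeq2, fits of 2 groups, RLE scaling, other filters, removal of trends on length or GC, thinning and leaving out each sample. Named genes were the catalytic subunits and their immune counterparts, the activators and inhibitor, Psme3, the highest and lowest gene of each role and lipid, genes past the threshold, genes failing the filter and, of the pathway, Nfe2l1, Pomp and the highest and lowest. Members, lists and tests were chosen with earlier results of these data known. Others named for a DESeq2 call, a group pattern or their level were chosen after their values were seen.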

Additional observations from a re-analysis of the deposited data

Results flagged for a closer look

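In 102 groups of 5 samples (29 named genes, 4 ratios and the share of counts on the proteasome genes), 15 had 1 sample whose gap to its nearest neighbour was large against the range of the group by Dixon's ratio. Chance alone flags about 1 in 20 groups of independent, normal values. Here the ratios reuse named genes and some counts are low, so 15 cannot be read as an excess. Among the catalytic and immune subunits the flagged values were Psmb5 in vehicle replicate 3 (1078 normalised counts), Psmb7 in RvD6 replicate 9 (270.2) and RvD6si replicate 11 (154), and Psmb10 in vehicle replicate 1 (222, low) and RvD6si replicate 12 (382, high). The thymus subunit Psmb11 stood apart in vehicle replicate 1 (13.0) and RvD6 replicate 10 (21.1), beside values at or near 0. Psmc3ip stood apart in vehicle replicate 2 (68.5) and RvD6 replicate 10 (117). Psmd13 was low in RvD6si replicate 12 (494), and Psme1 and Psmg3 were high in RvD6 replicate 6 (277 and 112). Psmg4 was high in vehicle replicate 3 (85.1). Of the ratios, RvD6 replicate 9 had a log2 ratio of Psmb10 to Psmb7 of -0.35 and of Psme3 to Psme1 of 0.37. RvD6 replicate 9 accounts for 3 of the 15 and also had the highest muscle sum, 3196 CPM. Its flagged Psmb7 value and Psmb10 to Psmb7 ratio rest on the same Psmb7 count.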

How the results depend on the processing

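The counts of proteasome genes past adjusted p 0.05 depended on the tool. In RvD6si against vehicle edgeR called 0, DESeq2 called 8 on all samples and 12 on the 2 groups (8.67% of all genes in that fit), edgeR called 1 with at least 10 counts in every sample (315 of 12128 genes) and 1 after thinning to the lowest total (0.850%), and 0 to 1 with a sample left out (Psmc5 without RvD6 replicate 9, 1.35% of all genes, or RvD6si replicate 13, 0.399%, and Psmb10 without RvD6si replicate 12, 0.992%). In RvD6 against vehicle edgeR called 0 and DESeq2 4 and 5 (3.31% in the latter), and in RvD6si against RvD6 edgeR called 0 and DESeq2 1 on the 2 groups (0.942%). The count at unadjusted p below 0.05 in RvD6 against vehicle, 22, was 14 to 26 with a sample left out (14 without vehicle replicate 3, 10.9% of all genes, and 15 without RvD6 replicate 7 or 10, 11.1% and 10.7%) and 12 (10.0%) without the sample of highest muscle sum in each group, an alternative chosen after seeing the data. In RvD6si against vehicle that count, also 22, was 16 to 23 with a sample left out. It was 16 without vehicle replicate 3 (12.8%) and 17 without vehicle replicate 5 (13.1%) or RvD6si replicate 11 (11.9%). In RvD6si against RvD6 that count, 2, was 1 with 10 counts in every sample (9.25%), 1 with the length trend removed (9.19%), 5 without the muscle samples (11.0%) and 1 to 4 with a sample left out (4 without RvD6si replicate 12, 10.6%, and 1 without RvD6 replicate 7 or 10 or RvD6si replicate 11, 13 or 14). The median over the 49 genes stayed between -0.34 and -0.23 for RvD6si and between -0.32 and -0.24 for RvD6 in the 15 fits leaving out a sample. With a sample left out the log2 ratio difference of Psmb9 to Psmb6 after RvD6si was 0.96 to 1.30, and that of Psmb10 to Psmb7 was -1.12 (without RvD6 replicate 10) to -0.35 (without RvD6 replicate 9) after RvD6 and -0.91 to -0.041 between the lipids. The causes were not tested. No paired analysis was possible because the groups share no replicate number. Depth limits Psma8, Psmb7, Psmb9, Psmb11 and Psmc3ip, whose counts are low.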
